A study of Mus musculus with 4 samples.

Results

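The alpha and beta globin loci were examined in 2 lists of CTCF peaks from the mouse embryonic forebrain. Their globin genes are active in red blood cells and were taken to be silent in neural cells. Expression of these genes was not measured in this series. The 7 genes were chosen by name: Hba-x, Hba-a1 and Hba-a2 on chromosome 11, and Hbb-bt, Hbb-bs, Hbb-bh1 and Hbb-y on chromosome 7. They are 7 of 21779 protein-coding genes of the RefSeq table used. Each cluster, from the lowest to the highest end of its listed genes, was taken with 200 kb on either side. The regions held 19 of 25625 peaks of the medial ganglionic eminence (MGE) list and 25 of 31886 peaks of the telencephalon list.

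Antibody-bound chromatin fragments were sequenced (ChIP-seq) after precipitation with a rabbit antibody to CTCF. Tissue was of embryonic day 13.5, with 1 CTCF library from the MGE, a ventral part of the forebrain that gives rise to cortical interneurons, and 1 from the telencephalon. Each tissue also had 1 input library, not analysed here. The labels give no genotype or strain and name no cell sort, so chromatin of blood cells in the dissected tissue would be included. The same MGE dissection text stands on all 4 samples, and whether the telencephalon sample held the MGE is not said. The telencephalon list carries a track name that begins with e14. Library kits differed between the tissues, so kit and tissue cannot be told apart. With 1 library a tissue there is no replicate, every difference describes these libraries alone, and no p-value was computed. The lists give positions without scores, so read depth is unknown and a site with no peak can lie under a list's calling limit. Intervals of shares are 95% exact binomial (Clopper-Pearson) and cover nothing but counting error.

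CTCF is a zinc finger protein that halts cohesin on DNA, so that pairs of its sites often form the bases of chromatin loops. The orientation of its motif matters for which sites pair. In red cell precursors the globin genes are driven by distant enhancers. Those of the alpha cluster lie in introns of the neighbouring gene Nprl3, and those of the beta cluster form the locus control region beyond Hbb-y. CTCF sites on both sides of each cluster are known from erythroid cells and other tissues.

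At the alpha locus CTCF peaks stood at the theta-like genes Hbq1b and Hbq1a, which lie beside the adult alpha genes and were not on the gene list. Hbq1b lies inside the cluster as bounded by the listed genes, and the Hbq1a peak lay 2522 bp outside it in MGE and 2608 bp outside it in telencephalon. Both start sites had a peak in both libraries. The MGE peaks lay at chr11:32286702-32287193 for Hbq1b and at chr11:32299833-32300275 for Hbq1a, with widths of 492 and 443 bp. Their telencephalon partners lay at chr11:32286781-32287104 and chr11:32299919-32300217, with widths of 324 and 299 bp. Both telencephalon peaks lay wholly within the MGE peaks.

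The RefSeq promoter sequences of these genes (GRCm38.p6, the coordinates of mm10) are shown because they carry a CTCF core under the peaks. The core searched was 12 bases long, began with CC, had AG at the sixth and seventh places, ended in GGC and could have any base elsewhere. It was sought on both strands with no mismatch. It was found once in each promoter, as its reverse complement on the strand of the gene, and its letters are in capitals. Each line gives the 250 bases before the annotated start, 5′ to 3′ on the forward strand, chr11:32286714-32286963 for Hbq1b and chr11:32299819-32300068 for Hbq1a.
Hbq1b: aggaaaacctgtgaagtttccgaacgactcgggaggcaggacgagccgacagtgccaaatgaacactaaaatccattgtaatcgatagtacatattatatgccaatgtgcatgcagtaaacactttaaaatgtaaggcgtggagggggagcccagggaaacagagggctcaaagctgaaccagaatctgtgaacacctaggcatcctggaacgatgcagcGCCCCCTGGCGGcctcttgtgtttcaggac
Hbq1a: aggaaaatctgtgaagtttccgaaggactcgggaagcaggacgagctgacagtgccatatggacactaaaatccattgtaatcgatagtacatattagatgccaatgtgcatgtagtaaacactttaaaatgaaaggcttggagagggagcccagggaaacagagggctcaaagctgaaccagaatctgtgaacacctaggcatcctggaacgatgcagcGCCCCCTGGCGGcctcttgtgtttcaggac

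The core ended 18 bp before the annotated start of each gene, at chr11:32286934-32286945 and chr11:32300039-32300050, on the reverse strand of the genome in both. In that orientation it points from the theta genes towards Hba-x and Nprl3. The midpoint of the Hbq1b peak was 8 bp from the middle of the core in MGE and 3 bp from it in telencephalon. At Hbq1a the distances were 9.5 bp in MGE and 23.5 bp in telencephalon. Over all promoters with a single core and a single peak, the median distance was 38.5 bp in MGE (462 promoters) and 45 bp in telencephalon (630 promoters). The core positions at the theta genes therefore lay nearer the peak centre than in the middle promoter of either list. In MGE both distances were below the interquartile range (14.6 to 85.4 bp). In telencephalon Hbq1b was below it (17.6 to 109.4 bp) and Hbq1a within it. The theta promoters are shown because their cores lie under peaks, and they are near copies, so the distances are a description and no test.

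Among 32851 promoter windows of the table, each from 250 bases before to 50 after a start, 8.61% held the core. A peak overlapped 3.83% of all windows in MGE and 6.46% in telencephalon. Of windows with the core, 18.2% had an MGE peak and 25.1% a telencephalon peak, against 2.48% and 4.70% of windows without it. A match of letters is a description of the sequence and does not show a bound site.

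The theta genes are copies of each other, 13105 bp apart, within a larger duplicated unit that also holds Hba-a1 and Hba-a2. Their 300-base windows were the same at 286 positions (95.3%) and differed at 14. An unbroken identical run of 105 bp held the core. The windows of Hba-a1 and Hba-a2 were identical over all 297 bases compared, after a shift of 3 bp. How reads that match both copies were treated is not given in the sources used here, so signal at the copies may not be independent.

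None of the 3 alpha globin genes had a peak in the gene or at its ends. Hba-a1, an adult alpha gene (chr11:32283672-32284486), was 1660 bp from its nearest peak in MGE and 1507 bp from it in telencephalon. Hba-a2, its duplicate (chr11:32296492-32297310), had the Hbq1a peak nearest, at 2522 bp in MGE and 2608 bp in telencephalon. Hba-x, which encodes the embryonic zeta chain (chr11:32276600-32278116), was farther off, with distances of 8030 bp in MGE and 7877 bp in telencephalon. The order of the 3 genes was the same in both lists, which follows from their nearest peaks being overlapping ones.

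The nearest peak of Hba-a1 and Hba-x was a narrow one between Hba-a1 and Hbq1b. It lay at chr11:32286147-32286390 in MGE (244 bp, both the narrowest width and the lower quartile of that list) and chr11:32285994-32286170 in telencephalon (177 bp). The peaks overlapped by 24 bp, or 13.6% of the shorter, so they counted as shared under the 1 bp rule and not under a rule of 50%. No peak lay in the second copy at the place given by the distance between the theta genes. Moved by that 13105 bp, the MGE peak would lie 337 bp from the nearest MGE peak, and the telencephalon peak 643 bp from the nearest telencephalon peak. The starts of Hba-a1 and Hba-a2 are 12820 bp apart, and the sequence under the narrow peak was not compared, so its exact counterpart is not known.

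The promoter of Hba-a1 is shown beside them, because it had neither a listed peak nor a core. Its window was identical to that of Hba-a2 over all 297 bases compared, unlike the theta windows. How reads that match both copies were treated is not given, and whether a peak could be called there was not tested. It lies on the forward strand at chr11:32283422-32283671. Capitals mark CACCC boxes, the CCAAT box and the TATAA letters on the gene strand, motifs known from globin promoters.
Hba-a1: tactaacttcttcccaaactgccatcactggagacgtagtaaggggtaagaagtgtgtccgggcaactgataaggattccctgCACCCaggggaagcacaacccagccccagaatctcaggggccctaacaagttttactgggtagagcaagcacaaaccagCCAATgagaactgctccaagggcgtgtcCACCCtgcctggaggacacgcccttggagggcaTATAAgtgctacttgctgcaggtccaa

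Across all promoter windows, CACCC was found on either strand in 57.5%, CCAAT in 37.4% and TATAA in 24.9%. A promoter was matched for 6 of the 7 globin genes, all but Hbb-bh1. None of the 6 windows held the CTCF core without a mismatch, which says only that these letters are not in these windows.

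**Figure D1:**
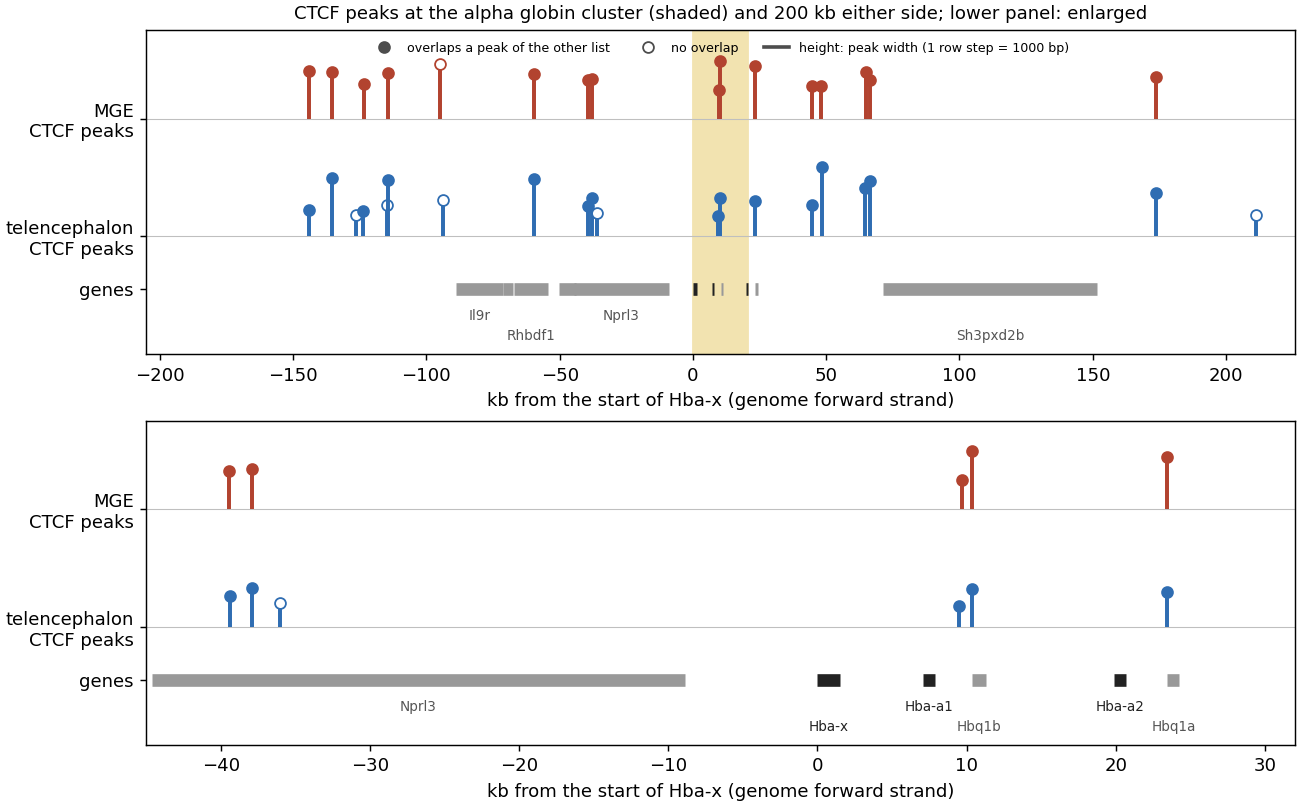
CTCF peaks of the MGE (red, upper row) and telencephalon (blue, lower row) lists, at their midpoints in kb from the start of Hba-x. Stem height is peak width, filled dots are peaks that overlap the other list, black bars are listed globin genes and grey bars are neighbours. All 16 MGE peaks but 1, and 15 of 20 telencephalon peaks, are filled. Neither list has a peak from within Nprl3 to the end of Hba-a1.

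With its flanks the alpha cluster (chr11:32076600-32497310) held 16 MGE peaks and 20 telencephalon peaks. That is 38.03 and 47.5 peaks per Mb, beside 13.1 and 19.4 over the span of chromosome 11. In windows of the same length centred on every protein-coding gene, the median count was 5 in MGE and 8 in telencephalon. As many peaks or more were found in 2.67% of these windows in MGE and 7.55% in telencephalon. Neighbouring genes have overlapping windows, so the shares describe where the region stands in the genome and are no test. The density was lower with longer flanks. With flanks of 500 kb it was 18.6 peaks per Mb in MGE and 26.5 in telencephalon.

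The alpha region had 15 shared peaks in each list. In MGE 15 of 16 were shared (93.8%, interval 69.8 to 99.8%). In telencephalon 15 of 20 were shared (75%, 50.9 to 91.3%). The shared share of the whole list was 58.4% in MGE and 47% in telencephalon. The median alpha peak was 365.5 bp wide in MGE and 302 bp wide in telencephalon, beside 300 and 276 bp for the whole lists. Over all peaks whose width fell in the interquartile range of the alpha peaks, 78.4% were shared in MGE and 54.3% in telencephalon. The MGE value lay within the alpha interval of MGE, and the telencephalon value within that of telencephalon. In the 15 shared pairs the midpoints lay 5 to 186.5 bp apart (median 45 bp), and in 12 pairs the overlap reached 90% of the shorter peak.

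On the enhancer side of the cluster, 2 shared peaks lay inside Nprl3, a gene for a subunit of a complex that restrains mTOR signalling. They stood 39278 and 37746 bp from Hba-x in MGE (chr11:32236996-32237321 and chr11:32238514-32238853) and 39252 and 37780 bp from it in telencephalon (chr11:32237086-32237347 and chr11:32238492-32238819). A further peak inside Nprl3 was in the telencephalon list alone (chr11:32240439-32240640, 202 bp), 1585 bp from the nearest MGE peak. From there to the peaks at Hbq1b no peak was listed over 47293 bp in MGE and 45353 bp in telencephalon. This stretch holds the rest of Nprl3, Hba-x and Hba-a1. Its length is ordinary at the rates of chromosome 11, 13.1 peaks per Mb in MGE and 19.4 in telencephalon.

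Farther out on that side, Rhbdf1, which encodes a rhomboid-family protein without protease activity, held a shared peak (chr11:32216856-32217236 in MGE and chr11:32216760-32217242 in telencephalon). Mpg, a DNA glycosylase gene, and Snrnp25, which encodes a small nuclear ribonucleoprotein component, held none. They were 4293 and 7859 bp from the nearest MGE peaks, and 4383 and 7763 bp from the nearest telencephalon peaks. Near Il9r, a cytokine receptor gene, each list had a peak that the other lacked. The MGE peak lay 5526 bp from the gene (chr11:32181558-32182017, 460 bp) and the telencephalon peak 4661 bp from it (chr11:32182578-32182882, 305 bp), with a gap of 560 bp between them. The nearest gene record to both was the pseudogene Gm12109, at 1994 bp in MGE and 1129 bp in telencephalon.

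The outermost peaks of the lower flank lay among non-coding RNA records. Shared peaks stood at the end of Gm51888 and inside Gm39676 (chr11:32132246-32132647 in MGE and chr11:32132310-32132536 in telencephalon), inside Gm40823 (chr11:32162209-32162598 and chr11:32162093-32162571), and between these genes at chr11:32140943-32141340 and chr11:32152916-32153212 in MGE. The telencephalon list had unshared peaks of 181 bp, between these records, and 269 bp, in Gm40823. They lay 2717 and 383 bp from the nearest MGE peak.

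Beyond Hbq1a, 4 of the 5 shared peaks stood as neighbouring pairs. The first pair, with the non-coding RNA record Gm46275 as its nearest gene, was 23908 and 27370 bp from the cluster in MGE, and 23956 and 27325 bp from it in telencephalon. The next, 43876 and 45612 bp out in MGE and 43717 and 45466 bp out in telencephalon, ended 4526 bp (MGE) and 4529 bp (telencephalon) short of Sh3pxd2b, which encodes an adaptor protein of podosomes. The telencephalon peak at chr11:32324636-32325221, in the first pair, was the widest of the alpha region at 586 bp, whereas its MGE partner had 280 bp. Sh3pxd2b itself (80417 bp long) held no peak in either list. It lay in the longest gap of the region, 106959 bp in MGE and 106963 bp in telencephalon. The fifth stood alone by Ubtd2, 152895 bp out in MGE and 152896 bp out in telencephalon, and an unshared telencephalon peak of 185 bp lay inside that gene.

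The beta cluster (chr7:103812524-103853207) held no peak in either library over its 40684 bp. Hbb-bt and Hbb-bs, the adult beta genes of the reference strain, and Hbb-bh1 and Hbb-y, the embryonic ones, were thus without a peak. Hbb-bh2 and the pseudogene Hbb-bh3, which lie between them, had none either. The peak-free stretch ran on past the cluster and was 82771 bp long in MGE and 65879 bp long in telencephalon. It held all 4 listed genes in both lists. Over the span of chromosome 7 there were 11.1 peaks per Mb in MGE and 14.6 in telencephalon. At those rates peak-free stretches of such lengths are ordinary, so the empty cluster does not by itself set the locus apart.

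A single peak of the beta region was shared. It lay beyond the adult end, 5183 bp from Hbb-bt in MGE (chr7:103807097-103807340, 244 bp) and 5214 bp from it in telencephalon (chr7:103806935-103807309, 375 bp). The overlap was 213 bp, 87.3% of the MGE peak. In MGE the peak had the narrowest width of the list, a common one there, since the lower quartile was also 244 bp. Telencephalon widths went down to 150 bp, and 74.7% of all peaks of that list were narrower than this peak. It was the nearest peak of Hbb-bt and of Hbb-bs in both lists, and Hbb-bs was 19182 bp from it in MGE and 19213 bp in telencephalon.

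On the side of the embryonic genes the lists had no peak in common. The MGE list had 1, at chr7:103890112-103890481 (370 bp), 36904 bp beyond Hbb-y and 2328 bp from the olfactory receptor gene Olfr64. The telencephalon list had 4, of 198 to 254 bp, at 19981, 59853, 89644 and 110698 bp beyond Hbb-y. The nearest of them to the cluster lay at chr7:103873189-103873400, 7905 bp from Olfr66, with the closest MGE peak 16711 bp away. The olfactory receptor records nearest to the others were Olfr631, Olfr633 and the pseudogene Olfr634-ps1. Hbb-y was therefore 36904 bp from a peak in MGE and 19981 bp in telencephalon. Hbb-bh1 had its nearest MGE peak on the adult side, at 34297 bp, and its nearest telencephalon peak on the embryonic side, at 30026 bp. A further MGE peak on the adult side had no partner (chr7:103797374-103797652, 279 bp). It lay 14871 bp from Hbb-bt, next to Olfr67.

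The Hbb-bs promoter is shown as an adult promoter of the cluster without peaks, on the reverse strand at chr7:103827929-103828178, with the same capitals as for Hba-a1. It held no CTCF core.
Hbb-bs: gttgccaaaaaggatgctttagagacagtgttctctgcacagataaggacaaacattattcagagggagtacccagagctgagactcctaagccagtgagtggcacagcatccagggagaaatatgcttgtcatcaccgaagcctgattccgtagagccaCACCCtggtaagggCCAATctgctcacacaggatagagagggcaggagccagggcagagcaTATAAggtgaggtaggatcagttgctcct

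**Figure D2:**
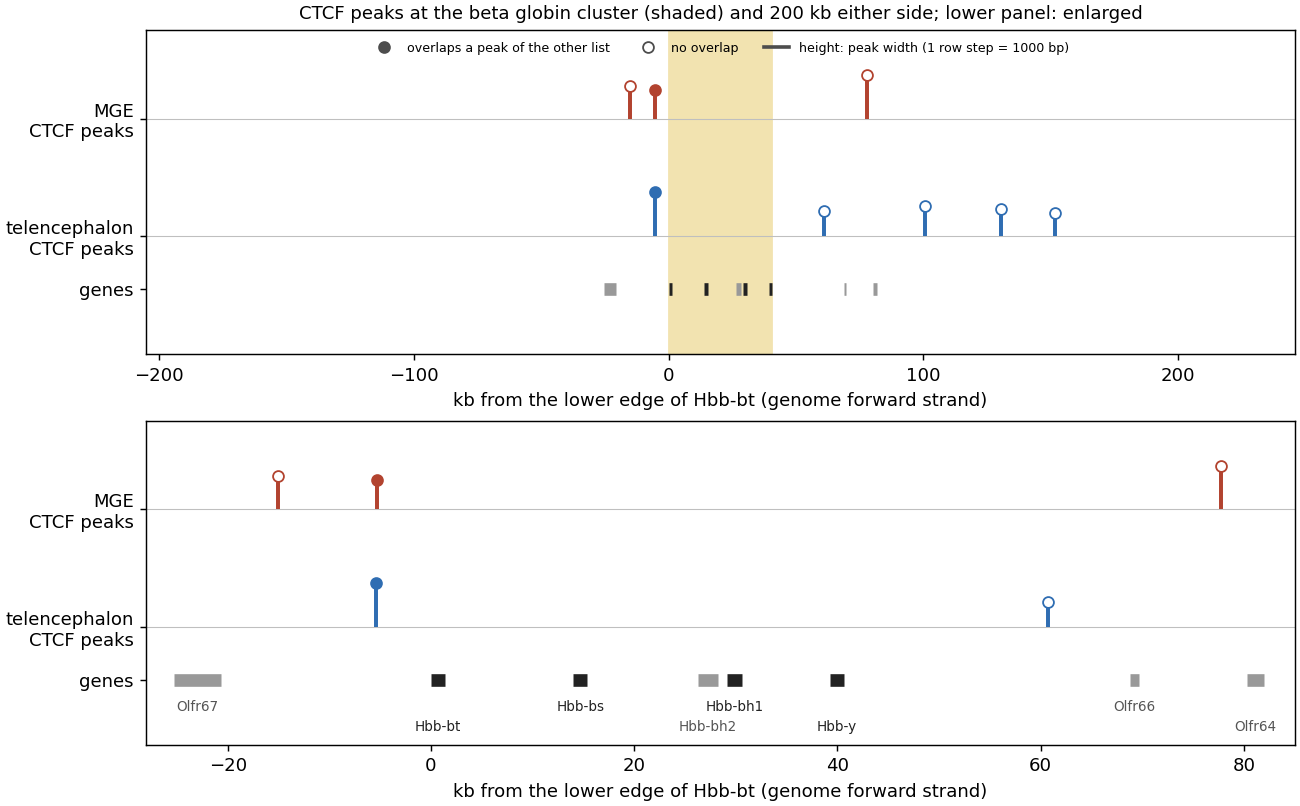
CTCF peaks of the MGE (red, upper row) and telencephalon (blue, lower row) lists at the beta cluster, at their midpoints in kb from the lower edge of Hbb-bt. Stem height is peak width, filled dots overlap the other list, black bars are listed globin genes and grey bars are neighbours. The shaded cluster is empty in both rows and only the peak just left of it is filled.

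With flanks the beta region (chr7:103612524-104053207) held 3 MGE peaks and 5 telencephalon peaks, or 6.81 and 11.3 per Mb, beside 11.1 and 14.6 over the span of chromosome 7. Windows of the same length around all protein-coding genes had a median of 6 peaks in MGE and 9 in telencephalon. As few peaks or fewer were found in 25.5% of them in MGE and 30.9% in telencephalon. The region lies in an array of olfactory receptors, sensory genes that are silent in most neurons, and held 29 such genes or pseudogenes. None of the 29 had a gene-end peak in either list, and over all protein-coding olfactory receptors 1.89% had one in MGE and 0.451% in telencephalon, so that 0 of 29 is close to their background. Windows around the 1109 protein-coding olfactory receptors had a median of 3 peaks in MGE and 1 in telencephalon, so the beta region equalled that median in MGE and exceeded it in telencephalon. As few or fewer were found in 50% of those windows in MGE and 81.9% in telencephalon.

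In the beta region 1 of 3 MGE peaks was shared (33.3%, interval 0.840 to 90.6%). Of the telencephalon peaks 1 of 5 was (20%, interval 0.505 to 71.6%). The intervals are wide, and both hold the shares of the whole lists. Peaks in windows around olfactory receptors were shared in 53.8% of cases in MGE and 49.1% in telencephalon. The unshared MGE peaks of the beta region, 279 and 370 bp wide, were wider than the shared one (244 bp), and the unshared telencephalon peaks, at 198 to 254 bp, were narrower than the shared one (375 bp).

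**Figure D3:**
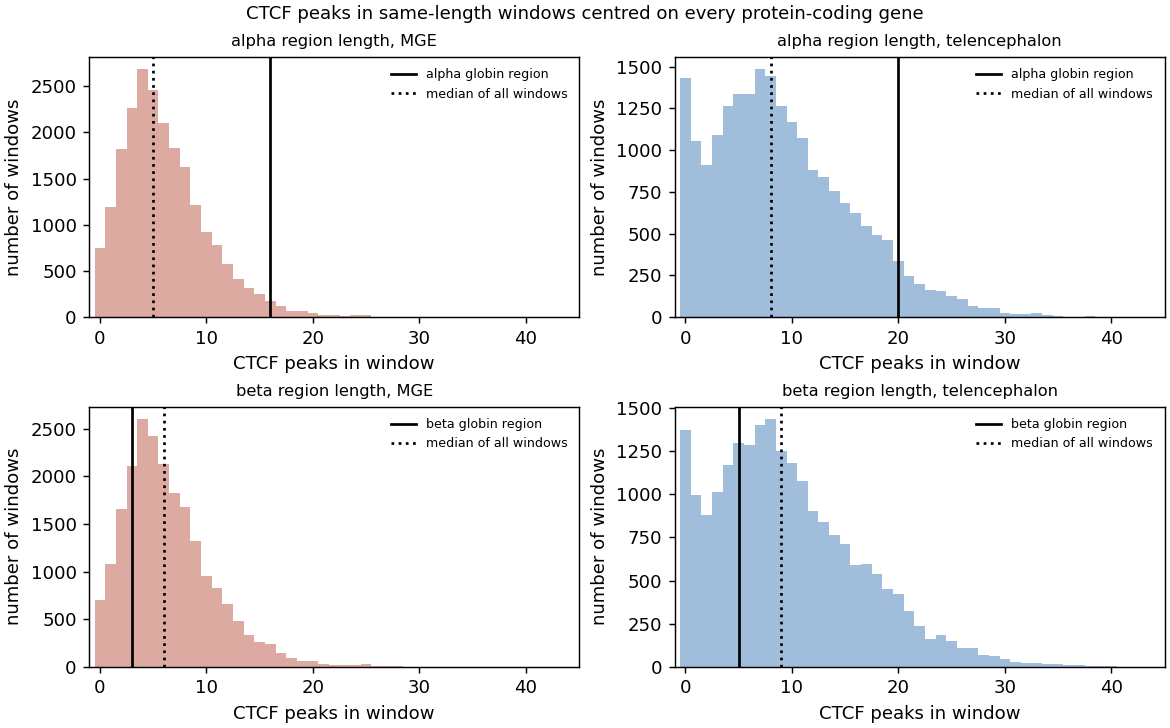
Number of CTCF peaks in windows of the length of the alpha region (top) and the beta region (bottom) around every protein-coding gene, in the MGE (left) and telencephalon (right) lists. Bars count windows, solid lines mark the globin regions and dotted lines the medians. The alpha region, at 16 and 20 peaks, lies in the upper tail, and the beta region, at 3 and 5, lies below the medians.

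Counted by gene, 0 of the 7 globin genes had a peak within 1 kb of either end in MGE, and 0 of 7 in telencephalon, where 12.2% and 19.4% of all protein-coding genes had one. A count of 0 of 7 allows a share of up to 41.0%. Counting the gene with 10 kb around it, 4 of 7 had a peak in each list (57.1%, interval 18.4 to 90.1%), beside 51.6% in MGE and 61.6% in telencephalon. These 4 were Hba-x, Hba-a1, Hba-a2 and Hbb-bt, and neighbours among them had peaks in common. The counts within 10 kb are near the background, and the counts say little about the genes as a group. The globin genes are 815 to 1525 bp long, and gene length was not matched. The alpha genes had a median distance of 2522 bp to a peak in MGE and 2608 bp in telencephalon. For the beta genes the medians were 26740 and 19597 bp, and for all protein-coding genes 8933 and 3300 bp.

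**Figure D4:**
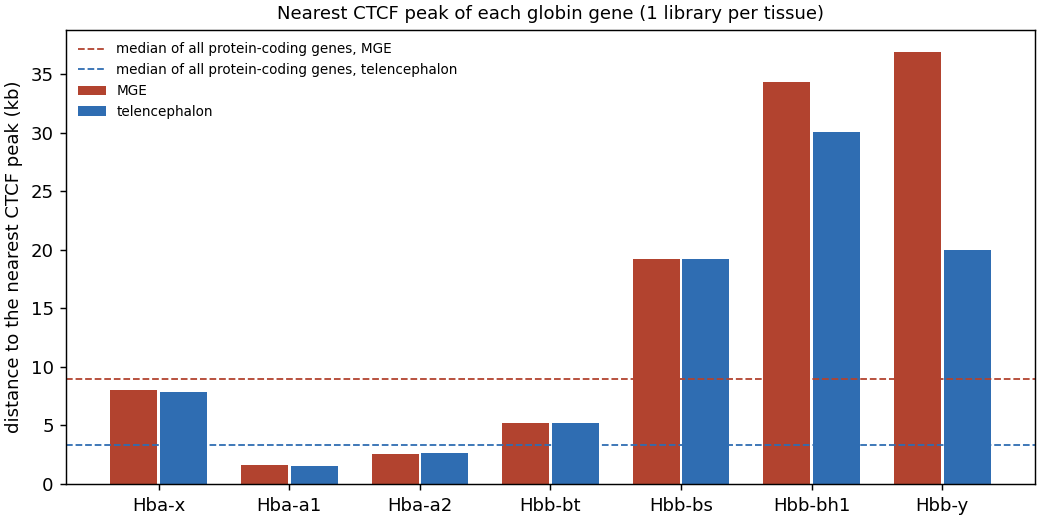
Distance in kb from each globin gene to its nearest CTCF peak in MGE (red, left bar) and telencephalon (blue, right bar), 1 library each and so without error bars. Dashed lines are the medians of all protein-coding genes. The alpha genes lie under 9 kb in both lists and the beta genes other than Hbb-bt at 19 kb or more.

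Genes of red cell development elsewhere in the genome were listed for comparison, and 36 of 37 were matched (Ahsp was not). A gene-end peak was found in 9 of 36 in each library (25%, interval 12.1 to 42.2%), and 8 genes had it in both. The gene-end shares of all protein-coding genes were 12.2% in MGE and 19.4% in telencephalon, both within that interval. Klf1, an activator of the adult beta gene, had a shared peak inside the gene (chr8:84902920-84903408 in MGE and chr8:84902762-84903453 in telencephalon). Bcl11a and Sox6, repressors of embryonic globin genes, had gene-end peaks in both lists. Gfi1b, a transcriptional repressor, and Lmo2, an adaptor in erythroid factor complexes, had them too. So did Cpox and Ppox, enzymes of haem synthesis, and Ank1, which encodes a protein of the red cell membrane skeleton. A gene-end peak in both lists need not be a shared peak. At Lmo2 the nearest peaks, chr2:103981769-103982012 in MGE and chr2:103982193-103982793 in telencephalon, did not overlap. Tfrc, the transferrin receptor, had a gene-end peak in MGE, with the nearest telencephalon peak 5630 bp from the gene. Slc25a37, a mitochondrial iron importer, had one in telencephalon, with the nearest MGE peak 3097 bp from the gene. In the gene or within 10 kb, 25 of 36 had a peak in each list (69.4%, interval 51.9 to 83.7%), beside 51.6% and 61.6% of all protein-coding genes. The MGE background lay just below that interval and the telencephalon background within it. This rule gives longer genes more room for a peak, and gene length was not matched. The list holds long genes such as Sox6 (569905 bp) and Ank1 (175666 bp).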

How the data were processed

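CTCF ChIP-seq peak lists of 1 MGE and 1 telencephalon library were used. The submitters' processing notes name MACS2 2.1.1.20160309, Bowtie2 2.3.2 and the build mm10. No calling threshold or filter is given in the sources used here. The authors deposited chromosome, start and end per peak, so peak width alone could rank peaks. Autosomal, X and Y peaks were kept (25625 of 25710 in MGE, 31886 of 31979 in telencephalon), with 1-based coordinates. Genes came from RefSeq on GRCm38.p6, which gives no strand or exons. The 340 records outside chromosome Y that ended below 3 Mb were left out, among them Hbb-b1, Hbb-b2 and Hbb-bh0, whose listed positions lie far from the cluster. Peaks were placed by any overlap, and shared when they overlapped by at least 1 bp. Chromosome spans ran over peaks and genes. Python 3.11.15 with scipy 1.17.1 was used. The counting functions were tested on simulated data. Members and lists were chosen with earlier results of these data known. The listed globin genes, fixed neighbours, the genes nearest to a described peak, and erythroid genes with a gene-end peak are named. A gene of the planned erythroid list was left out of its counts and is not reported here. The core search used promoters, since no genome sequence was used here.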

Additional observations from a re-analysis of the deposited data

How the results depend on the processing

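Of 90 alternatives over 22 results, 65 stayed within 1.5 times the reported count or density, or within the interval of the reported share, and 25 did not. All were planned. With the wider 50% of each list, fewer peaks were left by construction. The alpha cluster then held 1 peak in each library, and the alpha region of telencephalon 11 peaks (26.1 per Mb). The beta region held 1 in each (2.27 per Mb), shared in 0% of MGE and 100% of telencephalon cases. With as many telencephalon peaks as MGE peaks, the alpha cluster of telencephalon held 1. Flanks of 100 kb left 12 telencephalon peaks in the alpha region. Flanks of 500 kb gave 8 beta peaks in each library, and alpha densities of 18.6 per Mb in MGE and 26.5 in telencephalon. The clusters alone had 96.6 peaks per Mb at alpha and 0 at beta, in both libraries. Gene ends of 5 kb gave 2 of 7 globin genes in each list, beside 29.7% of all genes in MGE and 41.1% in telencephalon. The gene alone gave 0 in each, beside 31.6% and 39.3%. The globin genes are 815 to 1525 bp long and gene length was not matched, so that 0 cannot be read as a lack of peaks. With 1 mismatch allowed, the core was in 4 of 6 globin promoters and in 65.0% of all promoters. No paired analysis was possible because each tissue had 1 CTCF library. Unknown depth and calling thresholds limit every absence of a peak. At the duplicated alpha genes the unknown treatment of reads that match both copies limits it too.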

Other observations

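Globin genes outside the clusters also differed in their peaks. Mb, which encodes the oxygen store of muscle, held a peak inside the gene in both lists (chr15:77029500-77029770 in MGE and chr15:77029389-77029907 in telencephalon). Cygb, the widely expressed cytoglobin, was 2124 bp from a peak in MGE and 1944 bp from one in telencephalon. Ngb, the globin of neurons, was 19044 bp from its nearest peak in MGE and 8967 bp from it in telencephalon. The MGE peak (chr12:87121584-87121827, with the narrowest width of that list, also its lower quartile) and the telencephalon peak (chr12:87088351-87088563) lay on opposite sides of the gene. The alpha globin pseudogene Hba-ps3 had none within 93343 bp in MGE and 105424 bp in telencephalon, and Hba-ps4 was 16988 bp from a peak in MGE and 9242 bp from one in telencephalon.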
